A study of Mus musculus with 36 samples.

Results

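From a custom PCR panel, 3 transcripts were chosen that were lower in ileal mucosa of 3 groups of colonised mice than in germfree mice. They are read by the TaqMan assays Mm00438890_m1, Mm01611157_gH and Mm01253561_m1, 3 of the 224 assays in the deposited table. They were chosen on their measured difference from germfree: of 216 assays with enough values to be tested, 55 were lower than germfree in all 3 colonised groups, and these 3 were the ones that passed an adjusted p of 0.05 in each. The differences from germfree are therefore given as a description, with no test. The files pair no assay with a gene, so the transcripts go by their catalogue IDs and their functions are not described.

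The groups were germfree mice, which carry no microbes, mice mono-associated with E. coli CEC, mice mono-associated with the probiotic E. coli Nissle, and conventional mice, which carry an ordinary complex microbiota. Each held 9 samples of ileal mucosa. The labels expand neither CEC nor the number 21 that they give for the colonisation of the mono-associated groups, and they name no mouse strain, sex or age. The design text mentions pooling of RNA between mice while the samples are numbered singly, so whether a sample is 1 mouse is unclear and the p-values speak only for the sample-to-sample spread, part of which may be technical.

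The ileum is the last stretch of the small intestine, and its lining meets a dense bacterial load. In germfree animals that contact is missing, and bacteria, once introduced, are known to alter transcription of antimicrobial, immune and metabolic genes in this epithelium, some transcripts rising and others falling. Mucosa is a mixture of absorptive, secretory and immune cells, and in such bulk RNA fewer cells of a type and less RNA per cell cannot be told apart. No cell type marker could be looked up among the unnamed assays. By the supplier's naming, an m suffix marks a probe that lies across an exon junction, while a g suffix marks an assay that may also pick up genomic DNA and an H marks a target in a family of highly similar genes. Whether the signal of Mm01611157_gH includes genomic DNA or related copies was not tested.

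Real-time PCR gives a Ct, the cycle at which a well's fluorescence crosses a threshold. A higher Ct stands for less template. The log2 relative level used here is minus an assay's Ct after subtraction of the sample's mean Ct over the 146 assays that no sample lacked, so that 1 unit is a doubling relative to the panel if amplification is complete. That mean was 21.3 cycles for germfree, CEC and Nissle samples alike and 21.2 for conventional ones. Most samples gave 214 to 222 assays. CEC replicate 6 gave 198 and Nissle replicate 6 gave 175. CEC replicate 7, with 217, was treated as standing apart, and some alternatives left it out together with Nissle replicate 6. No measure of how far it stood apart is given here. All 3 transcripts gave a Ct in all 36 samples, none later than cycle 23.8.

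Mm01253561_m1 had the most colonised samples below every germfree sample. In germfree samples its log2 relative level ran from 0.04 to 0.62 with a median of 0.41, and its mean was 0.35 ± 0.24 (SD, n = 9). With CEC it ran from -0.43 to 0.28 with a median of -0.20 and a mean of -0.18 ± 0.24 (SD, n = 9). With Nissle it ran from -0.52 to -0.04 with a median of -0.37 and a mean of -0.32 ± 0.15 (SD, n = 9). Nissle samples therefore all lay below the lowest germfree sample, and of the CEC samples only replicate 1, the highest, lay inside the germfree range. Conventional samples ran from -0.65 to -0.19 with a median of -0.49 and a mean of -0.46 ± 0.15 (SD, n = 9), again below every germfree sample. In total 26 of 27 colonised samples were lower than any germfree sample on the scaled level. On unscaled Ct the count was 21 of 27, with 5 of 9 CEC samples, 8 of 9 Nissle samples and 8 of 9 conventional samples beyond the germfree range.

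For the same assay the log2 difference from germfree was -0.53 ± 0.10 (SE of the fit over all 36 samples) with CEC, which leaves 69.2% of the germfree level. It was -0.67 ± 0.10 with Nissle, or 63.1%, and -0.81 ± 0.10 in conventional samples, or 57.1%. The levels ran, from the highest, in the order germfree, CEC, Nissle, conventional. Nissle and conventional samples changed places with scaling to the panel median, at -0.74 and -0.71 from germfree, and with scaling to the 20 steadiest assays, at -0.64 and -0.58. Neighbours among the colonised groups overlapped over most of their ranges.

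Mm01611157_gH ran in germfree samples from 0.88 to 1.79, with a median of 1.33 and a mean of 1.28 ± 0.35 (SD, n = 9). Its CEC samples ran from 0.33 to 1.25, with a median of 0.76 and a mean of 0.67 ± 0.29 (SD, n = 9). The highest CEC value, that of replicate 7, was the only one inside the germfree range. In Nissle samples it ran from 0.08 to 1.15, with a median of 0.75 and a mean of 0.63 ± 0.36 (SD, n = 9), and 3 of the 9 Nissle samples (replicates 1, 3 and 4) overlapped germfree. Conventional samples were the tightest, from 0.24 to 0.82 with a median of 0.55 and a mean of 0.51 ± 0.19 (SD, n = 9), and all 9 lay below the lowest germfree sample. Over the colonised groups 23 of 27 samples were below any germfree sample on the scaled level. On unscaled Ct only 16 of 27 lay beyond the germfree range, 5 of 9 with CEC, 5 of 9 with Nissle and 6 of 9 in conventional mice. The log2 difference from germfree was -0.61 ± 0.15 (SE) for CEC, -0.64 ± 0.15 for Nissle and -0.76 ± 0.15 for conventional mice, which leaves 65.7%, 64.0% and 58.9% of the germfree level.

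Mm00438890_m1, the assay with the latest Ct of the set, had the fewest colonised samples below every germfree sample. Germfree samples ran from -1.59 to -0.62, with a median of -1.04 and a mean of -1.07 ± 0.27 (SD, n = 9). CEC samples ran from -2.29 to -1.37, with a median of -1.64 and a mean of -1.66 ± 0.28 (SD, n = 9). Here 1 germfree sample, replicate 32, lay low enough to overlap 4 of the 9 CEC samples. Nissle samples were the most spread, from -2.56 to -1.20 with a median of -1.65 and a mean of -1.69 ± 0.44 (SD, n = 9), replicates 8 and 2 being the lowest. Conventional samples ran from -2.11 to -1.20, with a median of -1.49 and a mean of -1.56 ± 0.24 (SD, n = 9). Only 13 of 27 colonised samples were below the lowest germfree sample (14 of 27 on unscaled Ct). On the scaled level all 27 were below the germfree mean, as was true of the other assays. Counted from the other side the order turned: 7 germfree samples lay above every colonised sample, against 5 for each of the other assays. The log2 difference from germfree was -0.59 ± 0.15 (SE) for CEC, -0.62 ± 0.15 for Nissle and -0.49 ± 0.15 for conventional mice, or 66.5%, 65.0% and 71.3% of the germfree level.

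**Figure D1:**
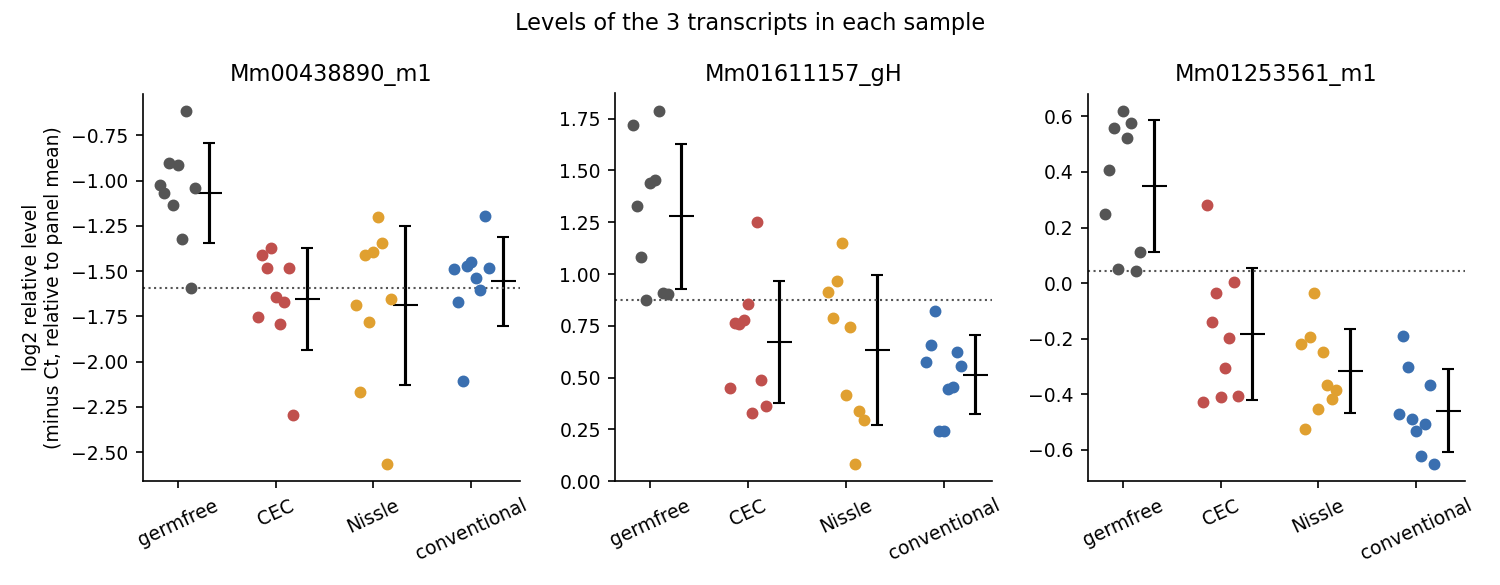
Log2 relative level of each assay in each of the 36 samples, by group, with the group mean and SD (n = 9) in black beside the points and a dotted line at the lowest germfree sample. For Mm01253561_m1 26 of 27 colonised samples lie under the line, for Mm01611157_gH 23 and for Mm00438890_m1 13. The assays were chosen on this difference, and the counts were not made for other assays.

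Other assays of the panel fell further. By the same criterion 2.31% of the 216 assays were called lower than germfree in the CEC comparison, 3.7% in the Nissle comparison and 13.9% in the conventional one, and the 3 assays are counted in each share because those calls chose them. The median difference over all 216 assays was 0.08 for CEC, 0.04 for Nissle and -0.08 for conventional mice, against medians of -0.59, -0.64 and -0.76 over the set. Ranked from the lowest difference, the 3 assays stood at 14 to 20 for CEC, 14 to 18 for Nissle and 13 to 30 for conventional mice. The rule favours a small spread, since the within-group SD enters its p-values, and the following SDs are a description of that choice. The SD within groups of Mm01253561_m1 was 0.20, the seventh smallest among the 146 assays measured throughout, while those of Mm01611157_gH (0.31) and Mm00438890_m1 (0.32) were also under the median of 0.44.

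The rule had a near edge. The highest of an assay's adjusted p values against germfree (limma) was 0.00127 for Mm01253561_m1, 0.0184 for Mm01611157_gH and 0.0187 for Mm00438890_m1. Just outside lay Mm01278617_m1, with log2 differences of -0.35, -0.45 and -0.54 in CEC, Nissle and conventional samples and a highest adjusted p of 0.0648. Mm01324470_m1 came next, at -0.50, -0.61 and -0.46, with a highest value of 0.112. With CEC replicate 9 left out only Mm01253561_m1 met the rule, the CEC difference being -0.51 for Mm00438890_m1 (adjusted p = 0.0564) and -0.57 for Mm01611157_gH (adjusted p = 0.0508). With germfree replicate 31 left out Mm00438890_m1 missed it in CEC (log2 difference -0.53, adjusted p = 0.0504). The set met the rule whole in the other 34 of 36 repeats that left out 1 sample. These repeats share most of the samples that chose the set. They and the p values given with them describe the rule and are no new test. With CEC replicate 7 left out 7 assays met it, and with that sample and Nissle replicate 6 left out 10 did, the 3 among them.

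Of the 9 differences from germfree, 1 met the rule under some scalings and not under others. In conventional samples the difference of Mm00438890_m1 from germfree was -0.39 with scaling to the panel median (adjusted p = 0.0862), -0.38 without any scaling (adjusted p = 0.0961), -0.42 after quantile normalization (adjusted p = 0.0650) and -0.26 with scaling to the 20 steadiest assays (adjusted p = 0.195). Under each of these it fell outside the rule, while Mm01611157_gH and Mm01253561_m1 met it. With the 2 strains the same assay moved little, from -0.65 to -0.51 in CEC and from -0.69 to -0.59 in Nissle samples over the 6 scalings. Mm01611157_gH ranged from -0.73 to -0.53 in CEC, from -0.81 to -0.62 in Nissle and from -0.78 to -0.54 in conventional samples. The ranges of Mm01253561_m1 were -0.66 to -0.46, -0.84 to -0.64 and -0.88 to -0.58. All 9 differences were below 0 under all 6 scalings, in the same samples that chose the assays.

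The median of all assays moved with the scaling too. In conventional samples it was -0.08 relative to the panel mean and 0.14 relative to the steadiest assays. Set against that median, the conventional difference was -0.40 for Mm00438890_m1, -0.68 for Mm01611157_gH and -0.72 for Mm01253561_m1. Scalings that shift all assays of a sample alike cancel in this measure by construction where no well is missing. In conventional samples only quantile normalization, of the 6, moved it, to -0.35, -0.68 and -0.81. In CEC samples other scalings moved it slightly, for Mm00438890_m1 from -0.67 relative to the panel mean to -0.66 with raw Ct. The measure was added after seeing the data.

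**Figure D2:**
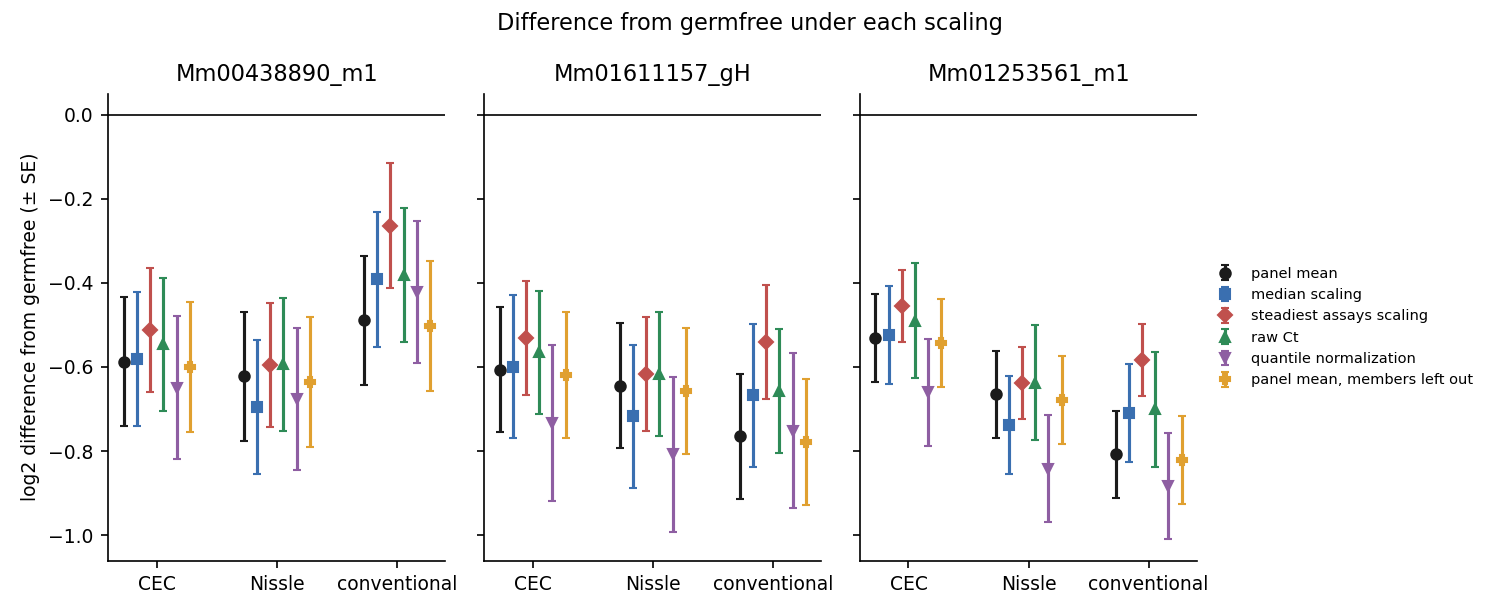
Log2 difference from germfree (± SE of the fit) of each assay in CEC, Nissle and conventional samples under 6 scalings, with 0 marked by the line. All points lie below 0, and the conventional value of Mm00438890_m1 moves most in proportion, from -0.50 to -0.26.

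Germfree samples enter all 3 differences, so the comparisons share their spread. Replicates 20, 32 and 33 were the lowest germfree samples for Mm01611157_gH, at 0.88, 0.91 and 0.90. They were also the lowest for Mm01253561_m1, at 0.05, 0.04 and 0.11. For Mm00438890_m1 replicate 32 was the lowest, at -1.59, replicate 20 stood at -1.14, and replicate 33, at -1.04, was the median. Whether these samples share a cage or a processing step is not given in the sources used here.

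Whether the falls differed in size between kinds of colonisation was tested by comparing colonised groups with each other. Germfree values do not enter these differences, but their spread enters the SE, intervals and p-values of the fit over all samples. No difference between Nissle and CEC samples was called for any of the 3. The log2 difference, Nissle minus CEC, was -0.03 for Mm00438890_m1 (95% confidence interval -0.35 to 0.28, adjusted p = 0.919), -0.04 for Mm01611157_gH (-0.34 to 0.26, adjusted p = 0.914) and -0.13 for Mm01253561_m1 (-0.35 to 0.08, adjusted p = 0.682). Of the panel 0.463%, or 1 assay, was called in this comparison, and 12 assays had an unadjusted p under 0.05. The intervals still hold differences of up to 0.35 log2 units, so equal falls with the 2 strains are not shown.

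Conventional samples were set against the mean of the mono-associated groups. Mm01253561_m1 was lower in conventional samples by a log2 difference of -0.21 ± 0.09 (SE; 95% confidence interval -0.39 to -0.03), with an adjusted p of 0.0992 that missed the threshold. Mm01611157_gH differed by -0.14 ± 0.13 (-0.40 to 0.12, adjusted p = 0.464). Mm00438890_m1 leaned the other way, at 0.12 ± 0.13 (-0.15 to 0.39, adjusted p = 0.585). None of the 3 was called, against 21.3% of the panel. The rule required both sides to be below germfree, which disfavours large differences between them. With 3 assays the count cannot be told apart from the panel's share. The value for Mm01253561_m1 was called with sample quality weights, at -0.24 (adjusted p = 0.0152), and shrank to -0.04 (adjusted p = 0.762) with scaling to the 20 steadiest assays. The value of Mm01611157_gH changed sign under that scaling, to 0.03, and under quantile normalization, to 0.02.

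Ratios between the assays within a sample need no scaling. The log2 ratio of Mm01611157_gH to Mm01253561_m1 averaged 0.93 ± 0.27 (SD, n = 9) for germfree and 0.85 ± 0.33 for CEC. It averaged 0.95 ± 0.28 for Nissle and 0.97 ± 0.16 for conventional mice. The group means lay well inside the spread of any one group. The rule required each assay to be below germfree in each colonised group, which favours ratios near the germfree value. Ratios set against germfree are therefore a description. The log2 ratio of Mm00438890_m1 to Mm01253561_m1 was -1.42 ± 0.24 in germfree, -1.47 ± 0.21 in CEC and -1.37 ± 0.41 in Nissle samples. It stood higher in conventional samples, at -1.10 ± 0.33, where it ran from -1.81 in replicate 2 to -0.83, with a median of -0.98. Between conventional and mono-associated samples that ratio differed by 0.33 (two-sided permutation test, p = 0.0218), which missed the threshold after adjustment over the 6 ratio comparisons made (adjusted p = 0.131). With 1 sample left out this difference ran from 0.28 to 0.41 and was not called in 26 of 27 repeats. The remaining repeat, without conventional replicate 2, gave 0.41 (permutation test, adjusted p = 0.0176). The ratio of Mm00438890_m1 to Mm01611157_gH differed by 0.26 (permutation test, p = 0.149, adjusted p = 0.448). Nissle and CEC samples differed by 0.10 or less in each ratio (exact permutation tests, adjusted p from 0.631 to 0.986). The ratio comparisons were added after seeing the data.

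**Figure D3:**
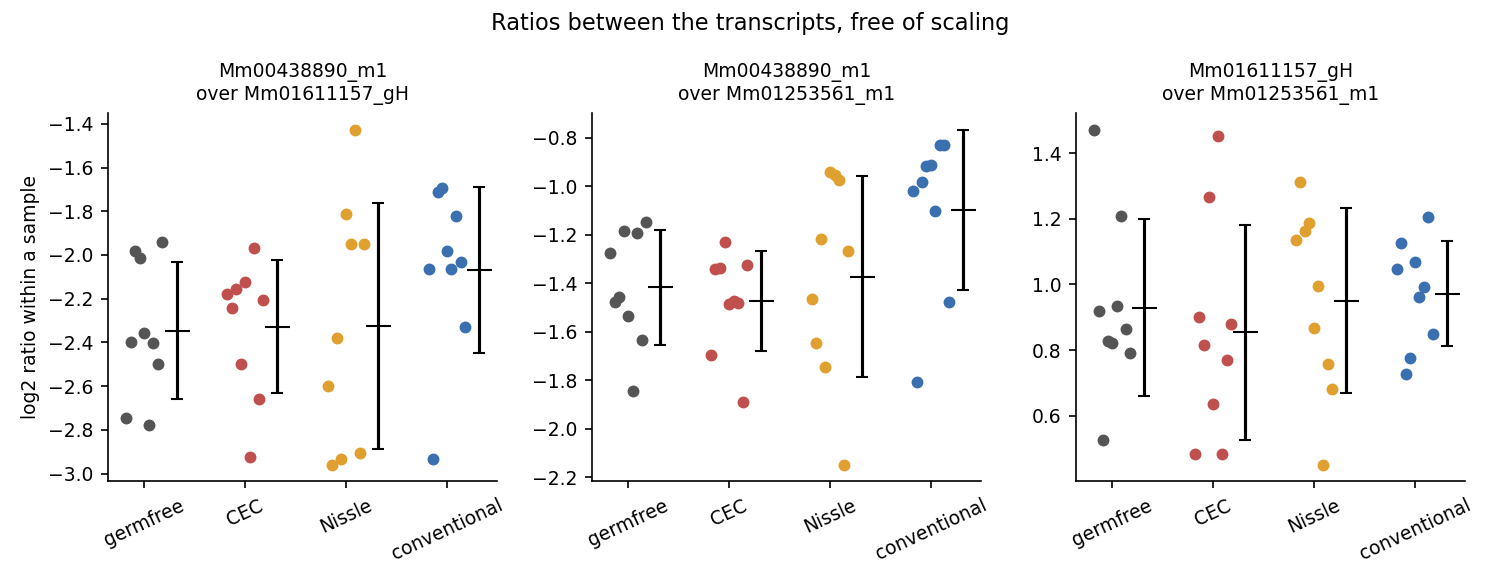
Log2 ratio of 1 assay to another within each sample, by group, with group mean and SD (n = 9) in black. The ratios of Mm00438890_m1 stand higher in most conventional samples, with replicate 2 the lowest conventional point in both. The ratio of Mm01611157_gH to Mm01253561_m1 is at a like level in all groups. The rule that chose the assays favours ratios near the germfree value.

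Co-variation within groups used the deviation of each sample from its group mean, whose size, but not whose relation between assays, entered the p-values that chose the 3. Mm01611157_gH and Mm01253561_m1 deviated together, with a Pearson r of 0.51 over 36 samples (permutation within groups, p = 0.00270, adjusted over the 3 pairs p = 0.00810) and a Spearman rho of 0.54 (permutation p = 0.00143, adjusted p = 0.00429). Without the 2 samples farthest from the median of Mm01611157_gH the r was 0.58 (permutation p = 0.00100). It was positive in each group of 9: 0.65 among germfree, 0.25 among CEC, 0.68 among Nissle and 0.58 among conventional samples. None of the 12 single-group relations passed after adjustment (exact permutation, lowest adjusted p = 0.248). With raw Ct the r over all samples was 0.57, and with scaling to the 20 steadiest assays it fell to 0.36 and was no longer called (permutation, adjusted p = 0.144). Among all 10585 pairs of the 146 assays the median r was 0.01, and 8.65% of the pairs had a higher r than this one.

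The relations of Mm00438890_m1 with the other assays varied with the setting. With Mm01253561_m1 its r was 0.36 (permutation within groups, p = 0.0276, adjusted p = 0.0414) and its rho 0.33 (permutation p = 0.0606, adjusted p = 0.0909). Without the 2 farthest samples the r was 0.31 (permutation p = 0.0719), so the relation was no longer called. By group the r was 0.58 among germfree, 0.70 among CEC, 0.32 among Nissle and -0.38 among conventional samples. With Mm01611157_gH the r was 0.17 (permutation p = 0.383) and the rho 0.06 (permutation p = 0.736), at 0.53 among germfree, 0.44 among CEC, 0.01 among Nissle and -0.51 among conventional samples. Without the 2 farthest samples it was 0.01 (permutation p = 0.972), while after quantile normalization it was 0.54 and was called (permutation, adjusted p = 0.00169). In conventional samples both relations of this assay were negative, a difference between groups that was not tested. Conventional replicate 2 was the lowest of its group for Mm00438890_m1 and the highest for Mm01611157_gH, and without it the r with Mm01611157_gH was 0.01.

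**Figure D4:**
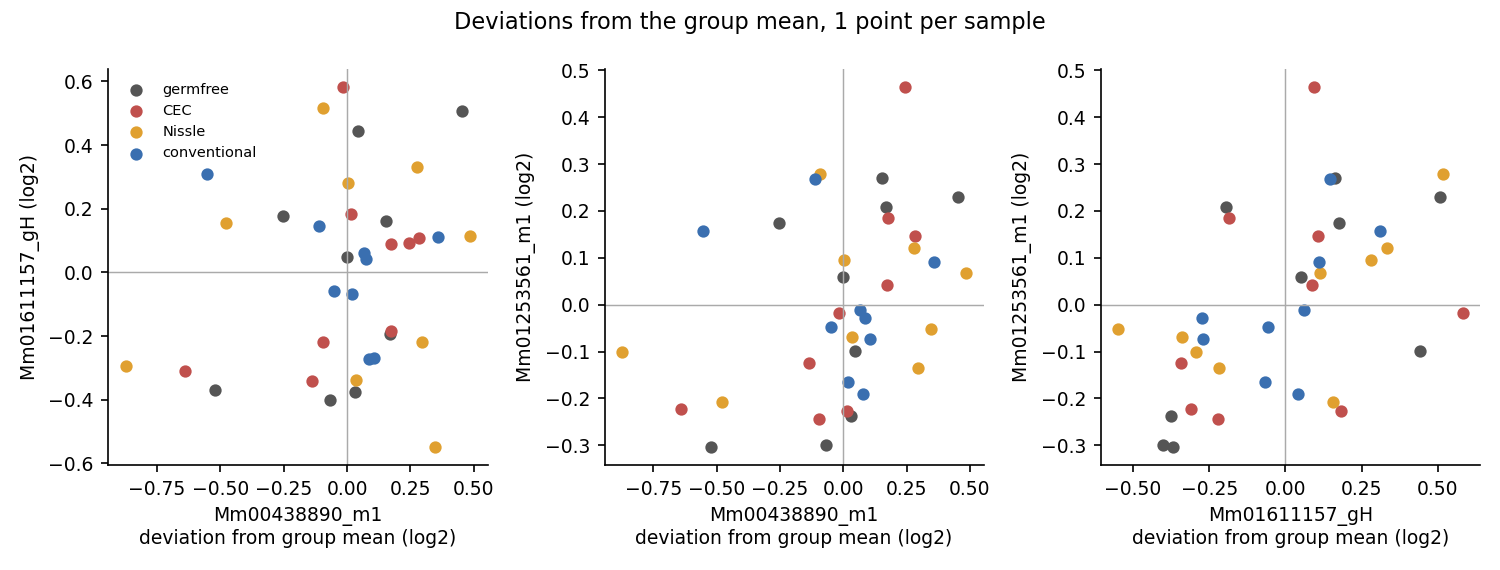
Deviation of each sample from its group mean, for each pair of assays, 1 point per sample and coloured by group (36 samples). Points of Mm01611157_gH and Mm01253561_m1 run from lower left to upper right (r = 0.51), those of Mm00438890_m1 and Mm01611157_gH show little order (r = 0.17).

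Of the whole panel, the assays whose sample-to-sample pattern was most like that of each of the 3 were looked up. The likeness is again the Pearson r of deviations from group means over 36 samples, given as a description over the 145 other assays measured throughout, which share the sample and its scaling. Closest to Mm01611157_gH was Mm01278617_m1, at 0.68, the assay just outside the rule. It ranked first under all 6 scalings and without CEC replicate 7 and Nissle replicate 6. Mm00466886_m1 followed at 0.63, and its differences from germfree were -0.24 for CEC, -0.43 for Nissle and 0.34 for conventional samples. Closest to Mm01253561_m1 was Mm01332867_m1, at 0.71, with differences from germfree of -0.24 in CEC and Nissle and -0.41 in conventional samples. Mm01282909_m1 came next at 0.66, with differences of -0.24, -0.14 and -0.42. For Mm00438890_m1 the closest were Mm00546288_s1 and Mm01332867_m1, at 0.47 each, and Mm00546288_s1 was lower than germfree by -0.67, -0.71 and -0.72. Some of these places changed with the setting. Mm00546288_s1 ranked 28 with raw Ct and 18 after quantile normalization, and Mm01332867_m1 ranked 12 for Mm00438890_m1 without CEC replicate 7 and Nissle replicate 6. Mm01282909_m1 ranked 16 for Mm01253561_m1 after quantile normalization, where Mm00466886_m1 ranked 8 for Mm01611157_gH.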

How the data were processed

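RNA from 36 ileal mucosa samples, with an average RNA integrity number above 9 by the labels' protocols, was measured on TaqMan OpenArray cards. Per the file headers, the deposited values are raw, non-normalized Ct and the table is a truncated example. How the authors set thresholds, and the amplification efficiencies, are not stated. Wells at a Ct of 40, read here as no amplification, were left missing (291 of 8064).

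Log2 relative levels were fitted with limma 3.58.1 in R 4.3.3 (1 term per group, all samples, eBayes defaults) for the 216 assays with a Ct in 5 or more of the 9 samples in each group. P-values were two-sided and adjusted by Benjamini-Hochberg over all 216, with the fit checked beforehand on simulated data. Correlations and ratios used 100000 permutations, or all of them within a group of 9 or for 9 against 9. Assays named were the 3, the 2 most alike to each and the 2 nearest the rule's edge. The members, tests and alternatives were chosen with earlier results of these data known. An assay could be matched to no gene or sequence in the tables used here, so the planned lists of cell type markers were not used.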

Additional observations from a re-analysis of the deposited data

Results flagged for a closer look

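Within a group of 9, a sample was singled out when its gap to the nearest other sample exceeded Dixon's 95% critical share of the group's range, which chance does in about 1 of 20 groups. Among 24 groups screened, 12 of levels and 12 of ratios, 1 sample passed. CEC replicate 9 stood at a log2 relative level of -2.29 for Mm00438890_m1, the next lowest CEC sample being at -1.79. The same sample was at -0.41 for Mm01253561_m1 and at 0.36 for Mm01611157_gH, among the lower CEC values of both.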

How the results depend on the processing

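The differences from germfree kept their sign in all alternatives, and 1 moved by more than the within-group SD: Mm01253561_m1 in conventional samples was -0.58 with the 20 steadiest assays. Nissle minus CEC differences were not called in any alternative. That of Mm01611157_gH turned to 0.0532 without CEC replicate 7 and Nissle replicate 6, 0.0205 with these samples left out and the 146 assays kept, and 0.0196 with sample quality weights, and ran from -0.103 to 0.0346 with 1 sample left out, that of Mm00438890_m1 from -0.114 to 0.0751. The panel's calls there numbered 1 in the limma fit reported and 0 in 7 of 15 other settings. Against the mono-associated mean, Mm01253561_m1 was called in conventional samples with quality weights (-0.24), and Mm01611157_gH turned to 0.0343 (steadiest assays) and 0.0190 (quantile). The panel's calls in this comparison numbered 46 in the fit reported and 96 with quality weights. They numbered 71 without the 2 samples and with the reference chosen anew.

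Same-numbered samples of different colonised groups showed little shared deviation (median r from -0.01 to 0.07, single pairs from -0.40 to 0.33). With only 8 or 9 such pairs between any groups, the check was too small to decide whether the numbers pair samples. Germfree samples were not part of it. With the replicate block Mm01253561_m1 was -0.22 (limma, adjusted p = 0.108) in conventional samples against the mono-associated mean, and no call of the 3 assays changed.

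The r over all samples of Mm00438890_m1 and Mm01253561_m1 missed the threshold with the steadiest assays (0.26), without the 2 samples (0.36), as rho (0.33) and without the 2 farthest (0.31), and ran from 0.30 to 0.44 with 1 sample left out. That of Mm00438890_m1 and Mm01611157_gH was called after quantile normalization (0.54), that of Mm01611157_gH and Mm01253561_m1 not with the steadiest assays (0.36). Within single groups the sign turned in Nissle for Mm00438890_m1 and Mm01253561_m1 (-0.44 without the 2 farthest), and for Mm00438890_m1 and Mm01611157_gH in Nissle (-0.10 steadiest assays, -0.0137 and -0.0407 without the 2 samples, -0.27 as rho, -0.39 without the 2 farthest, -0.344 to 0.232 with 1 left out), germfree (-0.0555 without the 2 farthest) and conventional (0.17 quantile, -0.776 to 0.0123 with 1 left out). The CEC r of Mm01611157_gH and Mm01253561_m1 was -0.23 with the steadiest assays. The ratio of Mm00438890_m1 to Mm01611157_gH, Nissle minus CEC, was -0.12 without the 2 samples and -0.108 to 0.0833 with 1 left out. The causes were not tested.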
